A study of Onthophagus taurus and Onthophagus nigriventris with 71 samples.

Results

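The comparison described here sets the dorsal head epidermis of female pupae of the horned beetle Onthophagus taurus against that of large, horned male pupae. It uses 8 of the 71 arrays of the series, the 4 titled as female head and the 4 titled as large male head, each of which hybridised head epidermis together with dorsal abdominal epidermis of the same sex and morph. Each channel held RNA from tissue of 4 pooled individuals, taken within 24 h of pupation. All animals were wild type and unmanipulated, and were reared in the laboratory. The label of the females gives a range of body sizes, whereas the male pools held only large, horned animals, so sex, horn and body size cannot be told apart between these groups. The head channel carried Cy5 in female arrays 2 and 4 and in large male arrays 1 and 3, and Cy3 in the others.

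Large males of this species grow a pair of curved horns from the back of the head, while small males and females stay without them or nearly so. Horns are outgrowths of the epidermis that form before the pupal moult and are then shaped during the pupal stage, and nutrition, endocrine signals and the sex-determination gene doublesex are known to govern whether they grow. The head of a female is thus a head without horns, as is that of a small male, and the design asks how far the sexes and the male morphs differ in such tissues.

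Each value was the log ratio of head and abdominal epidermis of 1 probe on 1 array, as deposited and taken as log2. The sources do not state the numerator. All 8 pairs of arrays with opposite dye orientation within a group correlated above 0 (r from 0.820 to 0.936), so the ratios run the same way on these arrays. Head over abdomen is the likely direction, because the design text speaks of the head relative to the abdomen. A positive value then means more RNA in the head. With the other direction every sign would turn, while sizes and counts would stay. Probes are given by their identifiers, since 0 of 3840 matched the reference table of genes, and no sequence or gene role is attached to them. Both channels of an array came from the same kind of animal, so a difference between heads and an opposite difference between abdomens cannot be told apart on these arrays. In pooled tissue, a change in the share of a cell type and a change in RNA per cell cannot be told apart either, and the epidermal identity of the samples could not be checked against markers.

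Female arrays correlated with each other over all probes with r from 0.846 to 0.904, and large male arrays with r from 0.820 to 0.949. Large male arrays 1 to 3 lay closest together, at 0.934 to 0.949, and array 4 stood apart from them at 0.820 to 0.858. The median absolute deviation (MAD) of the log ratios was 0.925 on that array and 0.550 to 0.622 on the other large male arrays. Between the groups r ran from 0.766 to 0.866. The SD of the log ratios per array was 1.07 ± 0.07 in females and 1.17 ± 0.09 in large males (SD, n = 4 each), a difference of 0.105 with p = 0.114 in an exact two-sided permutation test, where the smallest p possible is 0.0286. With the MAD the order was the other way, 0.711 in females and 0.665 in large males (exact permutation p = 0.629).

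**Figure D1:**
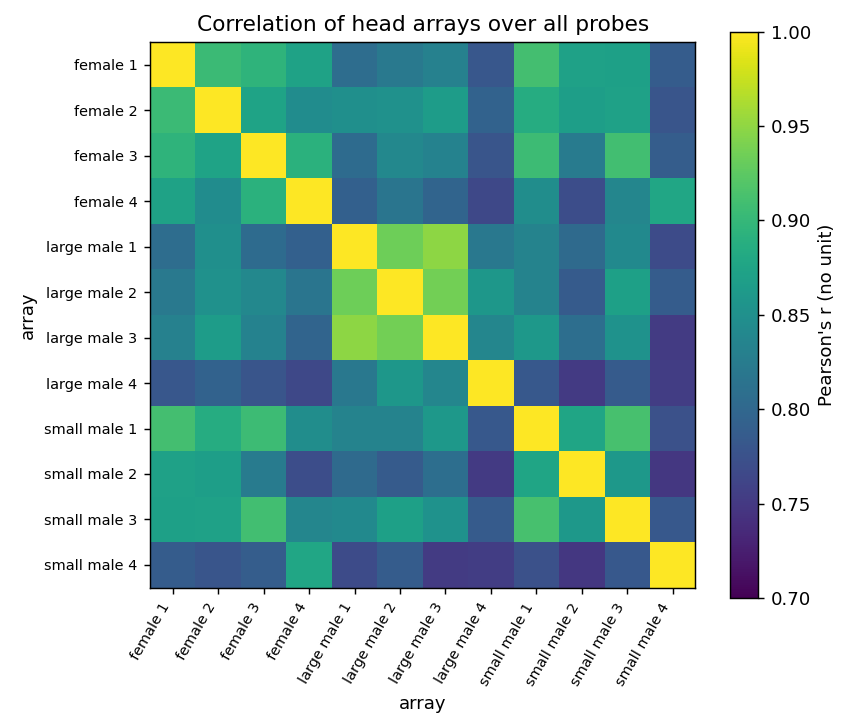
Pearson's r between the 12 head arrays over all 3840 probes, with female, large male and small male arrays on both axes and r as colour from 0.7 to 1. Large male arrays 1 to 3 form the brightest block (0.934 to 0.949), while large male array 4 (0.820 to 0.858) and small male array 4 (0.748 to 0.782) are darker against the other arrays of their groups.

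Female and large male heads differed at 369 of 3840 probes (9.61%) in limma's test, with 885 probes at an unadjusted p under 0.05. The difference, female minus large male, was positive at 188 probes (4.9%) and negative at 181 (4.71%). After each array was centred on its own median the split was 132 positive and 214 negative, and it was also uneven in the fits of fewer arrays described next. The sizes were not even. Of the 369, 142 (3.7% of all probes) exceeded 1 on the log2 scale, and 106 of these were negative and 36 positive. The median difference was -1.13 over the 181 negative calls and 0.67 over the 188 positive ones, against 0.04 over all probes. The 4 female and 4 large male arrays did not overlap at 432 probes (11.2% of all), with females higher at 219 (5.7%) and lower at 213 (5.55%), and 262 of the 369 were among these. Without large male array 4, which stood apart, 284 probes passed, 226 of them among the 369.

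The count depended on how the arrays were brought together. With arrays scaled to a common MAD 103 probes passed, all of them among the 369, and 74 of these were negative and 29 positive. Fitting only the 8 arrays gave 148 calls, 107 negative and 41 positive. Within one dye orientation, with 2 arrays per group, 92 probes passed where head RNA carried Cy5 and 133 where it carried Cy3, of which 85 and 112 were among the 369. The split was 36 positive and 56 negative within Cy5, and 32 and 101 within Cy3.

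**Figure D2:**
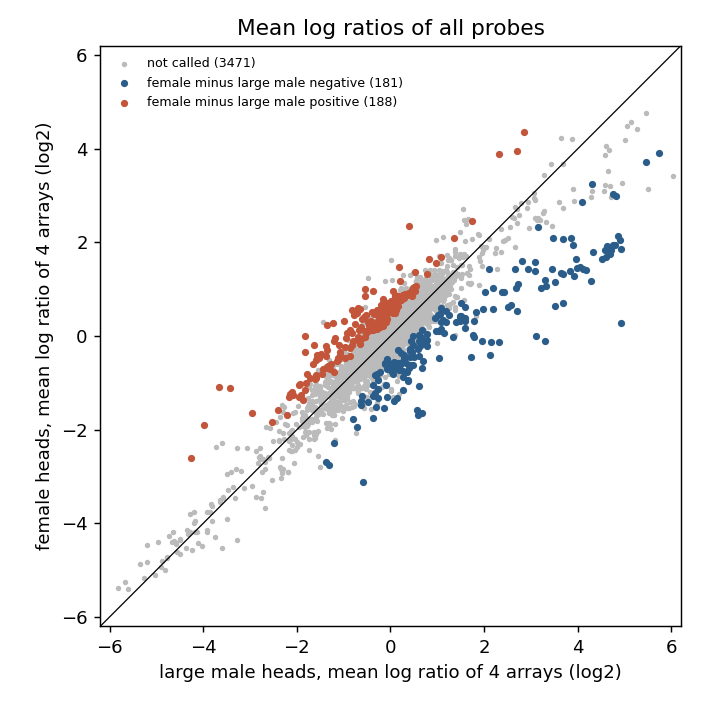
Mean log ratio (log2) of each of the 3840 probes in large male heads (horizontal, 4 arrays) and female heads (vertical, 4 arrays), with the line of equal values. The 181 negative calls lie below the line and reach farthest where the large male ratio is between 3 and 5, and the 188 positive calls follow the line more closely.

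The largest difference belonged to OtL002-E05. Its log ratio was 0.18, 0.67, -0.14 and 0.37 in female arrays 1 to 4, and 5.03, 4.52, 5.22 and 4.92 in large male arrays 1 to 4. The female heads thus stood near the abdomen and every large male head far above it, with no overlap. The difference was -4.65 ± 0.22 (SE, limma adjusted p = 2.01e-19). It was -4.61 within the Cy5 orientation and -4.70 within Cy3. Small male heads stood at 0.66 ± 0.53 (SD, n = 4), next to the females.

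OtL006-A04 and OtL002-B04 formed a pair of like probes, with r = 0.985 between them over the 48 O. taurus arrays that compare 2 tissues. Female arrays read -0.28, 0.20, 0.19 and -0.48 for OtL006-A04, and large male arrays 2.72, 3.32, 4.03 and 3.14. Again the female ratios lay on both sides of 0 and all large male ratios were high. The difference was -3.40 ± 0.32 (SE, limma adjusted p = 5.41e-10). For OtL002-B04 the female arrays read -0.05, 0.17, 0.36 and -0.45, the large male arrays 2.65, 3.32, 3.89 and 2.62, and the difference was -3.11 ± 0.31 (SE). Whether the pair reports a single transcript was not tested.

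OtL011-G01 was positive against abdomen in both groups and more so in large males. Female arrays read 0.84, 1.68, 1.03 and 1.16, and large male arrays 4.14, 4.27, 5.24 and 3.48. The groups were well apart, by -3.10 ± 0.47 (SE, limma adjusted p = 8.50e-06). OtL006-B01 followed the same order, with 2.01, 2.30, 1.64 and 1.48 in females and 5.55, 4.71, 6.35 and 3.14 in large males. Large male array 4 was the lowest of its group for both probes, and the gap to the females remained. The difference of OtL006-B01 was -3.08 ± 0.50 (SE, limma adjusted p = 3.36e-05). It was -4.06 within the Cy5 orientation and -2.09 within Cy3 (limma adjusted p = 0.0485).

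On the positive side OtP020-G02 led. It was below the abdomen in every head, with -0.28, -1.52, -1.51 and -1.04 in female arrays and -3.33, -3.70, -3.59 and -4.04 in large male arrays. The ratio was much more negative in all 4 large male heads, and the difference was 2.58 ± 0.41 (SE, limma adjusted p = 1.99e-05). Within the Cy5 orientation it was 2.18 and missed the threshold (limma adjusted p = 0.0749), and within Cy3 it was 2.98. OtP003-F11 read -0.24, -1.59, -1.47 and -1.18 in females and -3.09, -3.66, -3.16 and -3.80 in large males, a difference of 2.30 ± 0.53 (SE). OtL007-G01 read -1.55, -2.15, -2.24 and -1.67 in females and -3.55, -4.08, -3.52 and -4.82 in large males, a difference of 2.09 ± 0.54 (SE). In all 3 probes the head ratio was below 0 in both groups and farthest below it in large males.

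OtL011-D04 showed another pattern. Female arrays read 2.19, 3.87, 1.21 and 2.15, and large male arrays 0.41, 0.45, 0.39 and 0.32. The females were high and scattered, while the large males lay just above the abdomen with an SD of 0.05 (n = 4). The difference was 1.96 ± 0.53 (SE, limma adjusted p = 0.0125), and it no longer passed without female array 2 (1.44, limma adjusted p = 0.0864) or with scaled arrays (1.46, limma adjusted p = 0.136). OtP006-D08 read 0.36, -0.20, -0.06 and -0.12 in females and -1.25, -1.54, -1.83 and -2.72 in large males. Here the female head stood near the abdomen and the large male head lay below it, by a difference of 1.83 ± 0.40 (SE, limma adjusted p = 0.0020). With scaled arrays OtP006-D08 (limma adjusted p = 0.0751), OtP003-F11 (0.142) and OtL007-G01 (0.207) lost their calls. Within Cy5 the same 3 gave 1.38, 1.74 and 1.62 and missed the threshold (limma adjusted p = 0.190, 0.353 and 0.380).

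**Figure D3:**
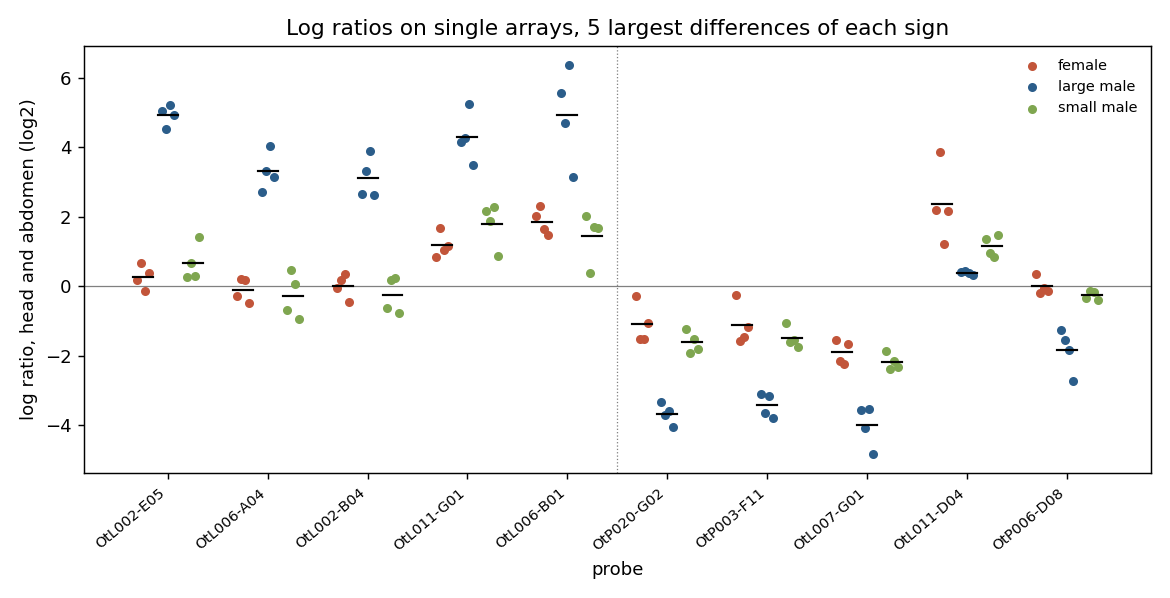
Log ratios of head and abdomen (log2) on single arrays for the 5 probes with the largest negative and the 5 with the largest positive difference, in female, large male and small male heads (4 arrays each, bars are means). Large males stand away from the females in all 10 probes, which is fixed by the choice, since only probes without overlap of these groups were taken. OtL011-D04 is the probe in which the female arrays scatter most, from 1.21 to 3.87.

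The other 7 negative probes among the 12 largest differed by -2.97 to -2.86. OtL020-D11 had means of 0.71 in females and 3.68 in large males. OtP015-C03 had 0.65 and 3.53, and it varied most within the groups, with female array 4 at 2.42 and large male array 4 at 5.52. It missed the threshold when only the 8 arrays were fitted (limma adjusted p = 0.0553). Its difference was -1.58 within Cy5 (limma adjusted p = 0.518) and -4.17 within Cy3. The remaining 5, OtL013-G05, OtL015-G04, OtL013-H09, OtL003-H02 and OtL016-F01, had means of 1.66 to 2.05 in females and 4.52 to 4.91 in large males, as OtL006-B01 had.

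The other 7 positive probes among the 12 largest differed by 1.45 to 1.66. OtL007-E10 was strongly negative in both groups, at -2.61 in females and -4.27 in large males. OtP005-C05 was strongly positive in both, at 3.90 and 2.33. OtL007-H04 crossed 0, with 1.04, 1.32, 0.85 and 0.83 in females and -0.13, -0.14, -0.35 and -1.55 in large males. For OtP002-C10, OtP008-G10, OtP009-C07 and OtL008-F11 the large male mean rested in part on array 4, which read -3.29, -2.70, -3.71 and -2.63 where the other large male arrays ran from -0.87 to -0.52, -0.84 to -0.58, -1.74 to -0.57 and -1.41 to -1.18. Without that array OtP009-C07 (0.83, limma adjusted p = 0.131) and OtL008-F11 (1.09, limma adjusted p = 0.0846) no longer passed. OtP002-C10 fell from 1.60 to 0.93 and OtP008-G10 from 1.52 to 1.01, and these and the remaining named probes kept their call. When only the 8 arrays were fitted, OtP002-C10 (limma adjusted p = 0.119), OtP008-G10 (0.0614) and OtP009-C07 (0.140) missed the threshold. Within Cy3 OtP002-C10 (limma adjusted p = 0.0703) and OtP008-G10 (0.0603) lost their calls too. Without female array 1 OtL007-E10 and OtP005-C05 lost theirs, as did OtP005-C05 without large male array 1 and OtL007-E10 without large male array 3. With scaled arrays OtL007-E10 (limma adjusted p = 0.255), OtP005-C05 (0.206), OtP009-C07 (0.118) and OtL008-F11 (0.203) lost theirs too. Within Cy5 the same probes missed the threshold (limma adjusted p = 0.199, 0.415, 0.710 and 0.289). Within Cy3 OtL007-E10 (limma adjusted p = 0.279), OtP005-C05 (0.0603) and OtL008-F11 (0.0910) missed it, and OtP009-C07 passed (0.0164).

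Some called probes moved as sets. Of the 369, 84 (22.8%) had a partner on the array at r of 0.95 or more over the 48 arrays, against 370 of all 3840 probes (9.64%). The 48 arrays include the 8 with which the 369 were chosen, so the larger share may follow in part from that choice. When called probes were joined wherever 2 of them correlated with r of 0.95 or more over the 48 arrays, the 369 fell into 314 sets, 294 of them single probes and 20 larger sets that hold the other 75 probes, 139 on the negative side and 175 on the positive. The largest set held 16 probes, all negative in female minus large male, 6 of which are named above (OtL006-B01, OtL013-G05, OtL015-G04, OtL013-H09, OtL003-H02 and OtL016-F01). Over the 16, means ran from 1.02 to 2.13 in females, from 2.69 to 4.94 in large males and from 0.68 to 1.83 in small males. The medians on single arrays were 1.76, 2.31, 1.63 and 1.53 in females and 5.50, 4.12, 5.62 and 3.15 in large males, so array 4 was the lowest large male array for the set and still lay above every female median. A second set of 11 included OtL011-G01, with female means of 1.12 to 1.65 and large male means of 2.72 to 4.28. Members joined through a shared partner need not reach 0.95 with each other. Between members r ran from 0.83 to 0.989 in the set of 16 and from 0.773 to 0.984 in the set of 11. A set of 6 held positive calls (OtP020-G02, OtP003-F11, OtL007-G01, OtP006-D08, OtL008-F11 and OtL012-H09), with differences of 1.16 to 2.58. Whether the members of a set report the same transcript was not tested, so the number of calls is not a number of genes.

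The probes were next described by the side of the abdomen on which each group stood. Female heads differed from abdomen at 2458 probes (64% of 3840, with 1393 or 36.3% positive and 1065 or 27.7% negative) and large male heads at 2292 (59.7%, with 1225 or 31.9% positive and 1067 or 27.8% negative). Each class is given with its share of all 3840 probes, called or not. Among the 181 negative calls, 67 were positive against abdomen in both groups and more so in large males (class share 26.4%), led by OtL011-G01. Another 47 were positive in large males and not called in females (5.23%), led by OtL002-E05. In 43 the female head was negative and the large male head was not called either way (5.83%). OtP017-G07, the largest of these, had -1.39 ± 0.45 in females and 0.07 ± 1.04 in large males (SD, n = 4 each). In 14 both groups were negative, females more so (21.6%). OtP003-H05 led these, with -3.41, -3.05, -3.29 and -2.74 in female arrays and -0.39, -0.79, -0.60 and -0.52 in large male arrays.

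The remaining 10 negative calls had opposite signs, below the abdomen in females and above it in large males (0.26%). OtP002-A01 had the largest difference of these. Female arrays read -1.79, -1.46, -1.88 and -1.41, and large male arrays 0.28, 0.89, 0.06 and 1.47. The difference was -2.31 ± 0.29 (SE), and the means were -1.64 ± 0.24 in females and 0.68 ± 0.63 in large males (SD, n = 4 each).

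Among the 188 positive calls the commonest class, with 62, was positive in females and not called in large males (9.48%), led by OtL011-D04. Another 45 were negative in large males and not called in females (5.76%), led by OtP006-D08. In 41 both were negative, large males more so (21.6%), led by OtP020-G02, and in 25 both were positive, females more so (26.4%), led by OtP005-C05. The 15 probes of opposite sign, above the abdomen in females and below it in large males (0.391%), were led by OtL007-H04. The large male ratio was farther from 0 than the female ratio in 117 of the 181 negative calls (64.6%) and in 94 of the 188 positive ones (50%), and over all 3840 probes in 1764 (45.9%). Among calls over 1 in size it was farther in 80 of 106 negative and 28 of 36 positive ones. These classes use the same arrays as the calls and are a description. The leading probe of each class was picked after its values were seen.

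Small male heads, which were measured on 4 other arrays, had a median log ratio of 0.08 over the 181 negative calls, where females had -0.02 and large males 1.05. Over the 188 positive calls the medians were 0.12 in small males, 0.34 in females and -0.33 in large males. Small males were nearer to females than to large males at 301 of the 369 probes (81.6%), and at 2342 of all 3840 (61%). Small male array 4 stood apart from its group, with r of 0.748 to 0.782, while it reached 0.878 with female array 4. Without it the medians were 0.12 and 0.15, and 291 of the 369 (78.9%) were nearer to females, against 59.7% of all probes. OtL007-H04 lay between the groups, with 0.57 ± 0.07 in small males (SD, n = 4) against 1.01 in females and -0.54 in large males. OtP005-C05 stood at 4.21 ± 1.29 in small males, level with the females at 3.90. The called probes were chosen with the female and large male values, so only the small male values are new in this description.

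The direct arrays carried no abdomen. On 4 arrays the head epidermis of large males was hybridised against that of small males, 2 in each dye orientation, and the 4 pairs of opposite orientation correlated with r from 0.329 to 0.514. The sign of these ratios is not stated either, and they are given as deposited. Large over small males is an assumed reading, under which positive values mean more RNA in large males. The counts below show how the 2 kinds of array sort the probes, and they do not settle the direction. Of the 181 negative calls of female minus large male, 171 (94.5%) were positive on the direct arrays, with a median of 0.80. Of the 188 positive calls, 175 (93.1%) were negative, with a median of -0.37. Over all probes 1828 (47.6%) were positive, and the median was -0.02. At an unadjusted p under 0.05 the direct arrays passed 102 of the 181 and 75 of the 188, against 694 of all 3840 probes (18.1%). All 9 probes (0.234%) that passed after adjustment were among the 181. Together 346 of the 369 had the sign opposite to female minus large male, and 299 to 346 did with single direct arrays left out.

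On direct arrays 1 to 4 OtL002-E05 read 4.98, 4.40, 4.02 and 4.31, and OtL006-A04 read 3.74, 2.88, 3.23 and 3.89. OtP003-H05 read 2.73, 2.95, 2.33 and 2.45. These 3 probes were high on every direct array, as they were in large males against females. OtP020-G02 was low on every one, with -2.42, -1.70, -1.61 and -2.77, an estimate of -2.12 ± 0.25 (SE, limma adjusted p = 0.0778). OtL011-G01 varied widely across the direct arrays, which read 1.04, -2.40, 0.96 and 4.19 and gave 0.95 ± 1.07 (SE, limma adjusted p = 0.673). OtP002-C10 and OtP008-G10 stood near 0, at -0.13 ± 0.21 and -0.25 ± 0.24 (SE).

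**Figure D4:**
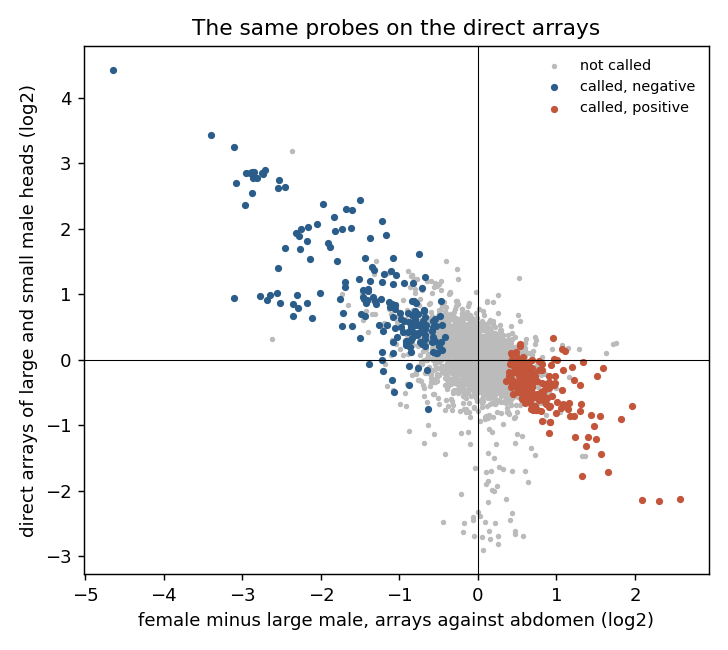
Each probe's difference between female and large male heads on the arrays against abdomen (horizontal, log2) and its log ratio on the 4 direct arrays of large and small male heads (vertical, log2). Of the 181 negative calls 171 lie above 0 and of the 188 positive calls 175 lie below it. A column of uncalled probes near 0 on the horizontal axis reaches below -2.

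The same difference was measured in the thorax and the legs, each against abdomen, on 8 other arrays per tissue. It passed at 107 probes in the thorax (2.79%), 62 negative (1.61%) and 45 positive (1.17%), and at 1 in the legs (0.026%). In the brain limma called 0, with 124 at an unadjusted p under 0.05. Deviations of same-numbered female head and thorax arrays from their group means correlated with r of 0.268 to 0.446, and those of female head and legs with 0.068 to 0.379, while large male head and thorax arrays gave -0.02 to 0.27 and head and legs -0.05 to 0.09. Same-numbered arrays may therefore share animals or abdominal RNA, and the tissues are given side by side. Dye effects were not removed from these deviations, and their part was not tested. Over the 181 negative calls of the head the median difference was -0.56 in the thorax and -0.11 in the legs. Over the 188 positive calls it was 0.25 and 0.04. Over all probes the medians were 0.06 in the thorax and 0.01 in the legs. In the brain against ganglia the medians were 0.12 over the negative and 0.01 over the positive calls of the head, and -0.01 over all probes.

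Whether the difference was unequal between the head and another tissue, in either direction, was tested as an interaction. Head and thorax differed in it at 17 probes (0.443%), 11 negative (0.286%) and 6 positive (0.156%), with 357 at an unadjusted p under 0.05. Head and legs differed at 97 (2.53%), 60 negative (1.56%) and 37 positive (0.964%), with 456 at an unadjusted p under 0.05. Of the 17, 14 were among the 369 calls of the head, and of the 97, 94 were. In 95 of the 97 the head had the larger difference in absolute size (59.3% of all probes), as it had in 12 of the 17 (50.7% of all). An interaction contains the head difference, so this follows in part from the test. Head and legs had opposite signs in 75 of the 97 (41.4% of all probes), and head and thorax in 9 of the 17 (34.3% of all). With scaled arrays the counts were 2 and 21. With single arrays left out they ran from 9 (without female thorax array 3) to 35 (without large male head array 4), and from 63 (without large male head array 3) to 101 (without large male head array 1).

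OtL002-E05, at -4.65 ± 0.22 for the head, gave -1.21 ± 0.22 for the thorax and -0.76 ± 0.22 for the legs (SE each). Head minus thorax was -3.44 (limma adjusted p = 5.23e-10) and head minus legs -3.89 (limma adjusted p = 1.23e-11). OtL006-A04 differed by -0.81 ± 0.32 in the thorax and 0.02 ± 0.32 in the legs, and both interactions passed at -2.58 and -3.42. OtP003-H05 gave -2.55 ± 0.18 for the head, -0.87 ± 0.18 for the thorax and -0.27 ± 0.18 for the legs, and both interactions passed at -1.68 and -2.27. OtP007-C08 was named for its head against thorax. It read -1.40, -0.78, -1.41 and -0.72 in female heads and 0.35, 0.64, 0.58 and 0.89 in large male heads, a difference of -1.69 ± 0.22 (SE), while its thorax differed by 0.35 ± 0.22 in the other direction. With scaled arrays OtP003-H05 and OtP007-C08 kept their call of head against thorax, and OtL002-E05, OtL006-A04 and OtL002-B04 did not. Within Cy3 OtP003-H05 lost this call, and within Cy5 OtP007-C08 did. OtL006-A04 and OtL002-B04 lost it in both orientations, whereas OtL002-E05 kept it in both.

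In the set around OtL006-B01 all 16 probes passed the test of head against legs and 0 passed that of head against thorax. With scaled arrays 9 of the 16 kept head against legs, within the Cy5 orientation 16 did, and within Cy3 0 did, settings chosen for this set after seeing the data. For head against thorax 2 passed within Cy5. The head difference itself stayed called at 16 of the probes within Cy5 and at 13 within Cy3. The 16 probes had differences of -3.08 to -1.5 for the head, -1.63 to -0.53 for the thorax and 0.11 to 0.76 for the legs. OtL006-B01 itself gave a head minus legs value of -3.34 (limma adjusted p = 0.0038) and a head minus thorax value with a limma adjusted p of 0.416. OtL007-H04 differed in the thorax too, by 1.13 ± 0.23 (limma adjusted p = 0.0108), with no interaction passing. OtP005-C05 had nearly the same difference in both tissues, 1.57 ± 0.45 in the head and 1.65 ± 0.45 in the thorax (SE).

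**Figure D5:**
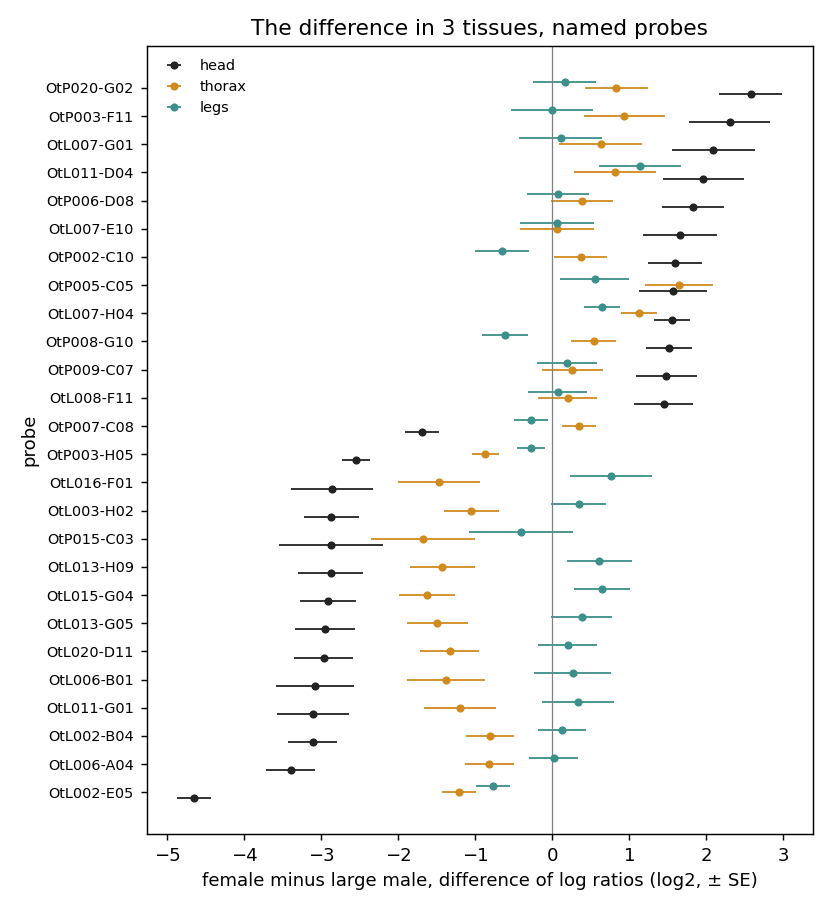
Female minus large male difference of log ratios (log2, points with SE) in head, thorax and legs for the 26 named probes, ordered by the head. Probes were named for a large head difference or interaction, so a head point far from 0 is fixed by the choice. The thorax points of most negative probes lie between head and legs.

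In O. nigriventris, whose males carry a thoracic horn, female minus large male in the thorax was fitted on 19 arrays of that species, 7 of females and 5 of large males among them. Its median was -0.08 over the 181 negative calls of the O. taurus head, 0.00 over the 188 positive ones and 0.01 over all probes. Of the 181, 107 (59.1%) were negative there, against 1889 of all 3840 (49.2%). The single probe called there (0.026%), OtP013-C07, was among the 181. It differed by -2.76 ± 0.47 in the O. nigriventris thorax (limma adjusted p = 0.0287) and by -1.61 ± 0.25 in the O. taurus head (SE each). In the O. taurus head it read 1.96, 1.71, 2.24 and 2.37 in female arrays and 4.06, 4.10, 3.02 and 3.57 in large male arrays. OtL002-E05 differed by -1.46 ± 0.39 in O. nigriventris and did not pass (limma adjusted p = 0.485).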

How the data were processed

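The authors deposited 1 normalised log ratio per probe and array, 3840 probes on 71 arrays with 0 missing values, taken as log2 because limma is named in the submitters' processing notes. RNA was T7-amplified and labelled, per the labels' protocols. How background was corrected and ratios were normalised is not given in the sources used here. The deposited log2 values were used unchanged. limma 3.58.1 (lmFit, eBayes; R 4.3.3) was run with 12 groups of 4 arrays (48 arrays) fitted together, a dye term per probe and Benjamini-Hochberg adjustment over all probes, threshold 0.05. A probe is called when it passes. Interactions were contrasts of that fit. The direct arrays (4) and O. nigriventris (19) were fitted apart. Named were the 12 largest differences of each sign among called probes whose groups did not overlap, and the 3 smallest p of each interaction. Planned gene lists were not run, as probes had no names. The fits were checked on simulated data. Groups, lists and members were chosen with earlier results of these data known. Pools are the replicates, and no label says whether they were reared apart. The p-values therefore reflect differences among pools, which may be technical. Deviations of same-numbered female and large male head arrays gave r from -0.09 to 0.02, and no pairing was used. These arrays always had opposite dye orientation, and dye effects were not removed from the deviations. The check therefore cannot show that pairing is absent. The highest r between any 2 arrays was 0.949. The number of arrays limits the precision. Figures used matplotlib 3.10.9 in Python 3.11.15.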

Additional observations from a re-analysis of the deposited data

Results flagged for a closer look

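A single array lay far from the other 3 of its group in 4 cases, all of them large male head array 4: OtP002-C10 at -3.29, OtP008-G10 at -2.70, OtL008-F11 at -2.63 and OtL007-H04 at -1.55. The rule used picks about 1 case in 20 among independent groups, or 2.8 over the 56 groups of 4 values examined. The probes are not all independent, and that figure does not bear on all 4 cases falling on a single array. OtP002-C10 and OtP008-G10 are like probes, with r = 0.985 over 48 arrays. Array 4 is also the large male array with the widest ratios (MAD 0.925), and its part in these differences was not tested beyond leaving it out.

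The difference between female and large male heads was tested against that of the thorax, and 5 named probes passed: OtL002-E05 (-3.44), OtL006-A04 (-2.58), OtL002-B04 (-2.30), OtP007-C08 (-2.04) and OtP003-H05 (-1.68). Over all 3840 probes 17 passed (0.443%). OtL002-E05, OtP003-H05 and OtP007-C08 were named for the smallest p in this same test. The others were named for a large head difference, which the test contains, so passing follows in part from the naming. Of these, 2 also passed with arrays scaled to a common MAD, OtP003-H05 and OtP007-C08. OtP003-H05 missed the threshold within Cy3 and OtP007-C08 within Cy5, while OtL002-E05 passed within both orientations.

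Against the legs 16 named probes passed, 10 of them also with scaled arrays. Over all 3840 probes 97 passed (2.53%). Here too passing follows in part from the naming, by the smallest p in this test or by a large head difference. Within Cy3 only OtL002-E05, OtL006-A04, OtL002-B04, OtP003-H05 and OtP007-C08 kept this call. Within Cy5 OtP002-C10, OtP008-G10, OtP020-G02 and OtP007-C08 lost it. OtP002-C10 and OtP008-G10 also lost it when only the groups compared were fitted. The values of head minus legs were -3.89 for OtL002-E05, -3.62 for OtL016-F01, -3.55 for OtL015-G04, -3.49 for OtL013-H09, -3.43 for OtL011-G01, -3.42 for OtL006-A04, -3.34 for OtL006-B01, -3.33 for OtL013-G05 and -3.24 for OtL002-B04. They were -3.21 for OtL003-H02, -3.17 for OtL020-D11, -2.27 for OtP003-H05 and -1.41 for OtP007-C08. On the positive side they were 2.41 for OtP020-G02, 2.25 for OtP002-C10 and 2.13 for OtP008-G10.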

How the results depend on the processing

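The count of 369 probes fell to 103 after scaling, 148 when the 8 arrays were fitted alone, 92 and 133 within the Cy5 and Cy3 orientations and 142 with a size over 1. It was 258 to 344 with single arrays left out. The head minus thorax count of 17 was 2 with scaled arrays, 63 with array weights, 10 within Cy5 and 3 within Cy3. It was 9 to 35 with single arrays left out: 11 without female thorax 2, 10 without female head 3, 9 without female thorax 3, 10 without large male thorax 2 and 35 without large male head 4. The head minus legs count of 97 was 21, 180, 34 and 7 in the same 4 settings and 63 to 101 with single arrays left out, 63 being without large male head 3. The calls against abdomen stayed within 1.5 times under all settings run, with 2152 to 2319 in females and 1933 to 2178 in large males over single arrays left out. The difference of the array SDs, 0.105, was 0.065 to 0.139 with single arrays left out and -0.046 by MAD. With the replicate number as a block, 395, 15 and 115 probes passed for head, head minus thorax and head minus legs, and no named probe lost its call. With same-numbered arrays of females, of large males or of small males as a random block (correlation 0.0546), the counts were 372, 20 and 117. Again no named probe lost its call. The main fit took these arrays as independent. The 26 named probes kept their sign under every alternative run. In all 26 the female and large male head arrays did not overlap. Fits that leave out arrays, keep 1 orientation or use the 8 arrays alone could therefore hardly turn a sign. Lost calls were 8 with scaled arrays, 10 within Cy5, 7 within Cy3, 4 with the 8 arrays alone and 1 with array weights. The 8 lost with scaled arrays were all positive (8 of 12 positive, 0 of 14 negative). Within Cy5 8 positive and 2 negative were lost, and within Cy3 6 and 1. With single small male arrays left out, a choice made after seeing the data, 289 to 304 called probes were nearer to females. The within-orientation fits have 2 arrays a group. Otherwise the cause was not tested.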

Other observations

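The direct arrays held a further group of probes outside the comparison, chosen after the values were seen. At 34 probes the direct estimate was below -1.5 while female and large male heads differed by less than 0.5 (from -0.45 to 0.48). Their medians were -3.09, -2.87 and -3.44 on direct arrays 2, 3 and 4 and 0.09 on array 1. Against abdomen their median log ratio was -4.30 in female, -4.49 in large male and -2.90 in small male heads.

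The 11 probes of the set around OtL011-G01 split the direct arrays in another way. Their medians were 0.95, -2.45, 0.86 and 4.07 on direct arrays 1 to 4, with ranges of 0.58 to 1.25, -2.58 to -2.18, 0.70 to 1.19 and 2.63 to 4.48, so the arrays did not overlap except arrays 1 and 3. The 16 probes of the set around OtL006-B01 had medians of 3.57, 1.56, 2.14 and 3.88 there, all positive.

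Probe names give a plate and a well (40 plates, 96 wells each) in 2 series, OtL and OtP. In the set of 16, 15 were OtL probes, and in the set of 11 all were. Of the 369 called probes 199 (53.9%) were OtL probes, where 50% of all probes are. The share was 49.7% in the 181 negative and 58% in the 188 positive calls.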
